A study of Mus musculus with 6 samples.

Results

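Nudt1 and 8 other genes that keep oxidised bases out of DNA, or cut damaged bases from it, were followed in mouse CD4+ T cells exposed to NETs. Neutrophil extracellular traps (NETs) are strands of chromatin studded with granule proteins that neutrophils expel. The 9 genes were found by gene symbol among 54532 genes of the deposited count table, and all 9 were matched. They are Nudt1, Nudt5, Nudt18, Ogg1, Mutyh, Neil1, Neil3, Apex1 and Ung. Nudt1 was chosen by its read counts in these same libraries, which were higher with NETs, so its difference is given as a description and without a test. The other 8 were listed by function, with earlier results of these data known.

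Reactive oxygen species oxidise guanine to 8-oxoguanine, both within DNA and in the pool of free nucleotides, and the oxidised base can pair with adenine. Sanitising enzymes of the Nudix family hydrolyse oxidised nucleotides before a polymerase can use them. Damaged bases already in DNA are cut out by glycosylases, and an endonuclease then opens the bare site so that base excision repair can fill it. Activated T cells raise both respiration and DNA synthesis, which makes them a setting in which these enzymes have been studied.

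The cells were naive CD4+ T cells from spleens of C57BL/6 mice, in 2 groups of 3 libraries, one with NETs and one with vehicle. Both groups were cultured for 72 h in U-bottom wells holding CD3/CD28 beads, interleukin IL-2 and antibodies to both IFNγ and IL-4. The cells sequenced had therefore been activated, whatever their name. How the NETs were obtained, their dose and the number of mice are not stated in the labels. Replicates are numbered but not tied to separate mice or wells. Every p-value therefore reflects the spread between these libraries, which may be technical.

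Libraries held 15657622 to 18655997 counted reads. All 9 genes passed the filter on low counts and lay among the 13900 genes tested. By edgeR's quasi-likelihood test, 0 of those 13900 genes (0%) passed a Benjamini-Hochberg adjusted p of 0.05. Unadjusted, 1776 genes (12.8%) had p under 0.05, and DESeq2 called 130 (0.935%). Of the markers that define CD4 T cells, mean Cd4 was 900 ± 51.2 CPM (counts scaled to a common library total of 1e+06) in vehicle and 885 ± 13.3 CPM in NETs libraries (SD, n = 3 each), and mean Cd3e was 399 ± 50.7 and 348 ± 27.5 CPM. Lck, the other most abundant T cell marker, was at 711 ± 27.5 and 769 ± 54.9 CPM.

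Markers of other cells were low but not all level between the groups. The 14 neutrophil markers summed to 2.86 to 3.77 CPM in vehicle and 4.95 to 6.59 CPM in NETs libraries. Averaged over all 6 libraries the most abundant were Mpo, a granule enzyme, at 1.62 CPM with vehicle and 2.03 CPM with NETs, and Lcn2 at 0.509 and 0.681 CPM. Of the defining neutrophil genes, Ly6g had 0 reads in all 6 libraries, and S100a8 had 0, 1 and 0 reads with vehicle and 7, 11 and 10 reads with NETs. S100a9, named here after its values were seen, had 0 reads with vehicle, which allows up to 3 counts over the group, and 16, 24 and 20 reads with NETs, a mean of 1.13 CPM that lay above that of Lcn2 there. The 8 monocyte, macrophage and dendritic markers summed to 31.0 to 41.8 CPM with vehicle and 40.9 to 54.5 CPM with NETs, led by Lyz2 at 23.5 and 36.0 CPM and Cd68 at 4.75 and 5.09 CPM. The groups did not overlap for Lyz2, a lysozyme of myeloid cells, whose log2 fold change was 0.63 (SE 0.16; edgeR adjusted p = 0.223) and which passed by DESeq2 (adjusted p = 0.0344). Csf1r, which defines macrophages, averaged 1.06 and 1.11 CPM. Of this list, 6 genes were tested. In log2 fold change 5 lay above 0, 2 of them with separate groups, and Itgam below at −0.25 (SE 0.42). Itgax, which the filter left out, had 32, 8 and 7 reads with vehicle and 7, 8 and 1 reads with NETs. In CPM all its NETs libraries lay below its vehicle libraries, but NETs replicate 2 (0.4349) and vehicle replicate 3 (0.4352) were almost level. Itgam and Itgax are named after their values were seen. Sums of 6 B cell markers were 18.2 to 18.9 and 13.5 to 20.1 CPM, with Cd79b and Cd79a the most abundant. Sums of 5 CD8 T and NK markers were 18.9 to 21.5 and 14.0 to 19.7 CPM, led by Cd8b1 and the defining Cd8a. Erythroid and platelet markers, led by Hba-a1 and Hbb-bs, reached 3.09 CPM at most. In bulk RNA, fewer cells of a type and less RNA per cell cannot be told apart. What these transcripts contribute to the values below was not tested.

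Several of the genes start back to back with a neighbour on the other strand, and the DNA between such starts is shown because the neighbours' values are compared further on. The sequences are from RefSeq for build GRCm38.p6, given 5′ to 3′ on the strand of the named gene. Each is the stretch just upstream of a RefSeq start that holds no annotated exon. Capitals mark letters that match a searched motif on either strand: CCAAT (the CCAAT box), GGGCGG (the GC box) or CACGTG (the E-box bound by Myc). Nudt1 has more than 1 start, and stretches are given for the outermost start and for an inner one.
Nudt1 outer start, chr5:140321553-140321621, plus strand, between Mad1l1 and Nudt1: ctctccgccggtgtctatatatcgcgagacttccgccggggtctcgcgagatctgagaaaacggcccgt
Nudt1 inner start, chr5:140331610-140331852, plus strand, within Mrm2: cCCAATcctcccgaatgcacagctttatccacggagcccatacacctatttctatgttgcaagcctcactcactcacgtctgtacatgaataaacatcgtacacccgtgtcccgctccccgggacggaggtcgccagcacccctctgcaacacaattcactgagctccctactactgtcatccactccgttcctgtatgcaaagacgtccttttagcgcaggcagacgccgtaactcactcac
Mutyh, chr4:116807641-116807722, plus strand, between Toe1 and Mutyh: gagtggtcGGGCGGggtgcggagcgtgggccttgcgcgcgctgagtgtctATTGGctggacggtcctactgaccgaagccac
Apex1, chr14:50924894-50924948, plus strand, between Osgep and Apex1: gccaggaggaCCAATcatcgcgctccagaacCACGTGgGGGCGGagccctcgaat

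The Apex1 stretch holds all 3 of these motifs within 55 bases, and the outer Nudt1 stretch holds none of them. RefSeq windows of 300 bases around a start were at hand for 8 of the 9 genes, in 11 windows. The GC box was in a window of 6 of these 8 genes, against 35.7% of all 32851 windows, and the CCAAT box in 4 of 8, against 37.4%. These counts are per gene and the percentages per window, so genes with more than 1 window had more chances to match. The E-box CACGTG was found for Apex1 alone, with 3 matches in its window, against 7.2% of all windows with any. E2F words (TTTGGCGC, TTTCCCGC, TTTCGCGC or TTTGCCGC, 2.3% of all windows) and the NRF1 word (1.0%) were in none of the 11. The antioxidant element TGACNNNGC, to which NRF2 binds, was in the windows of Nudt5 and Neil1 (12.4% of all windows). Each motif was searched on both strands, and no word contains another. A match is only a match of letters.

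The Nudix hydrolases that act on the nucleotide pool come first. Nudt1 (ENSMUSG00000036639; chromosome 5, 140321656 to 140338137, plus strand), also known as MTH1, splits oxidised purine triphosphates such as 8-oxo-dGTP. Its level was 13.2, 13.0 and 15.5 CPM in vehicle replicates 1 to 3 and 22.3, 21.6 and 24.0 CPM in NETs replicates 1 to 3. Every NETs library stood above every vehicle library, and the groups were separated by more than the range within either. The means were 13.9 ± 1.38 and 22.6 ± 1.20 CPM (SD, n = 3 each), from 203 to 249 reads per vehicle library and 383 to 411 reads per NETs library. The fitted log2 fold change was 0.72 (SE 0.14), a 1.64-fold difference, which ranked 20 from the top among the 10081 tested genes that averaged 5 CPM or more. Since these are the values by which Nudt1 was chosen, no p is attached to them. Leaving out any 1 library gave log2 fold changes of 0.67 to 0.80.

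Nudt5 (ENSMUSG00000025817; chromosome 2, 5845019 to 5871895, plus strand) cleaves ADP-ribose and also acts on 8-oxo-dGDP. It stood at 60.2, 46.4 and 73.4 CPM with vehicle and 68.2, 72.7 and 57.6 CPM with NETs. The highest and the lowest of the 6 values were both vehicle libraries, so the groups overlapped fully. The log2 fold change was 0.15 (SE 0.14; 95% interval −0.15 to 0.45; edgeR adjusted p = 0.679), and it was 0.0063 without vehicle replicate 2.

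Nudt18 (ENSMUSG00000045211; chromosome 14, 70577637 to 70582688, plus strand), the hydrolase also called MTH3, was at 19.1, 20.7 and 20.7 CPM with vehicle and 23.6, 17.9 and 22.1 CPM with NETs. One NETs library lay below all vehicle libraries and the others above them. Its log2 fold change was 0.09 (SE 0.15; 95% interval −0.23 to 0.40; edgeR adjusted p = 0.844).

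Ogg1 and Mutyh deal with 8-oxoguanine already in DNA. Ogg1 (ENSMUSG00000030271; chromosome 6, 113326972 to 113335068, plus strand) excises 8-oxoguanine paired with cytosine. It was at 11.8, 10.9 and 13.6 CPM with vehicle and 13.6, 16.0 and 11.8 CPM with NETs. NETs replicate 2 was the highest library, while NETs replicates 1 and 3 lay among the vehicle values. The log2 fold change was 0.20 (SE 0.17; 95% interval −0.17 to 0.57; edgeR adjusted p = 0.658).

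Mutyh (ENSMUSG00000028687; chromosome 4, 116807723 to 116819440, plus strand) removes adenine that was inserted across from 8-oxoguanine. Its levels were 20.96, 17.7 and 16.5 CPM with vehicle and 18.6, 19.6 and 21.5 CPM with NETs. Vehicle replicate 1 lay above 2 of the 3 NETs libraries. The log2 fold change was 0.13 (SE 0.15; 95% interval −0.19 to 0.44; edgeR adjusted p = 0.754).

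The Nei-like glycosylases cut out oxidised pyrimidines and ring-opened purines. Neil1 (ENSMUSG00000032298; chromosome 9, 57142800 to 57148305, minus strand) was at 27.7, 26.95 and 22.6 CPM with vehicle and 25.6, 23.2 and 24.3 CPM with NETs. All NETs values fell inside the vehicle range. The log2 fold change was −0.07 (SE 0.13; 95% interval −0.35 to 0.21; edgeR adjusted p = 0.868).

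Neil3 (ENSMUSG00000039396; chromosome 8, 53586867 to 53639065, minus strand), which prefers single-stranded DNA, unhooks interstrand crosslinks and is made in dividing cells, took the most reads of the 9 genes. It stood at 146, 130 and 118 CPM with vehicle and 108, 113 and 119 CPM with NETs. Vehicle replicate 3 lay just below NETs replicate 3, and the other vehicle libraries were above all NETs libraries. The means were 132 ± 14.1 and 113 ± 5.53 CPM. The log2 fold change of −0.20 (SE 0.09; 95% interval −0.40 to −0.0038) had an unadjusted p of 0.0463 and an edgeR adjusted p of 0.380.

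Ung and Apex1 act on other lesions and at the next step. Ung (ENSMUSG00000029591; chromosome 5, 114130386 to 114139323, plus strand) removes uracil from DNA in nucleus and mitochondria. It was at 29.4, 22.4 and 29.9 CPM with vehicle and 41.8, 35.0 and 33.5 CPM with NETs. All NETs libraries lay above all vehicle libraries, with NETs replicate 1 the highest. Means were 27.2 ± 4.18 and 36.7 ± 4.45 CPM, and the log2 fold change was 0.44 (SE 0.14; 95% interval 0.15 to 0.74). The unadjusted p was 0.00569, and the difference did not pass over all genes (edgeR adjusted p = 0.229; DESeq2 adjusted p = 0.0922).

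Apex1 (ENSMUSG00000035960; chromosome 14, 50924968 to 50927139, plus strand) is the main endonuclease at bare sites and a redox partner of transcription factors. It stood at 6.81, 6.26 and 9.01 CPM with vehicle and 13.0, 9.35 and 7.46 CPM with NETs. NETs replicate 3 lay below vehicle replicate 3, and NETs replicate 1 stood well above the rest. The log2 fold change was 0.44 (SE 0.24; 95% interval −0.06 to 0.95; edgeR adjusted p = 0.449), and it was 0.21 without NETs replicate 1. With 98 to 223 reads per library, Apex1 had the fewest reads of the 9 genes.

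**Figure D1:**
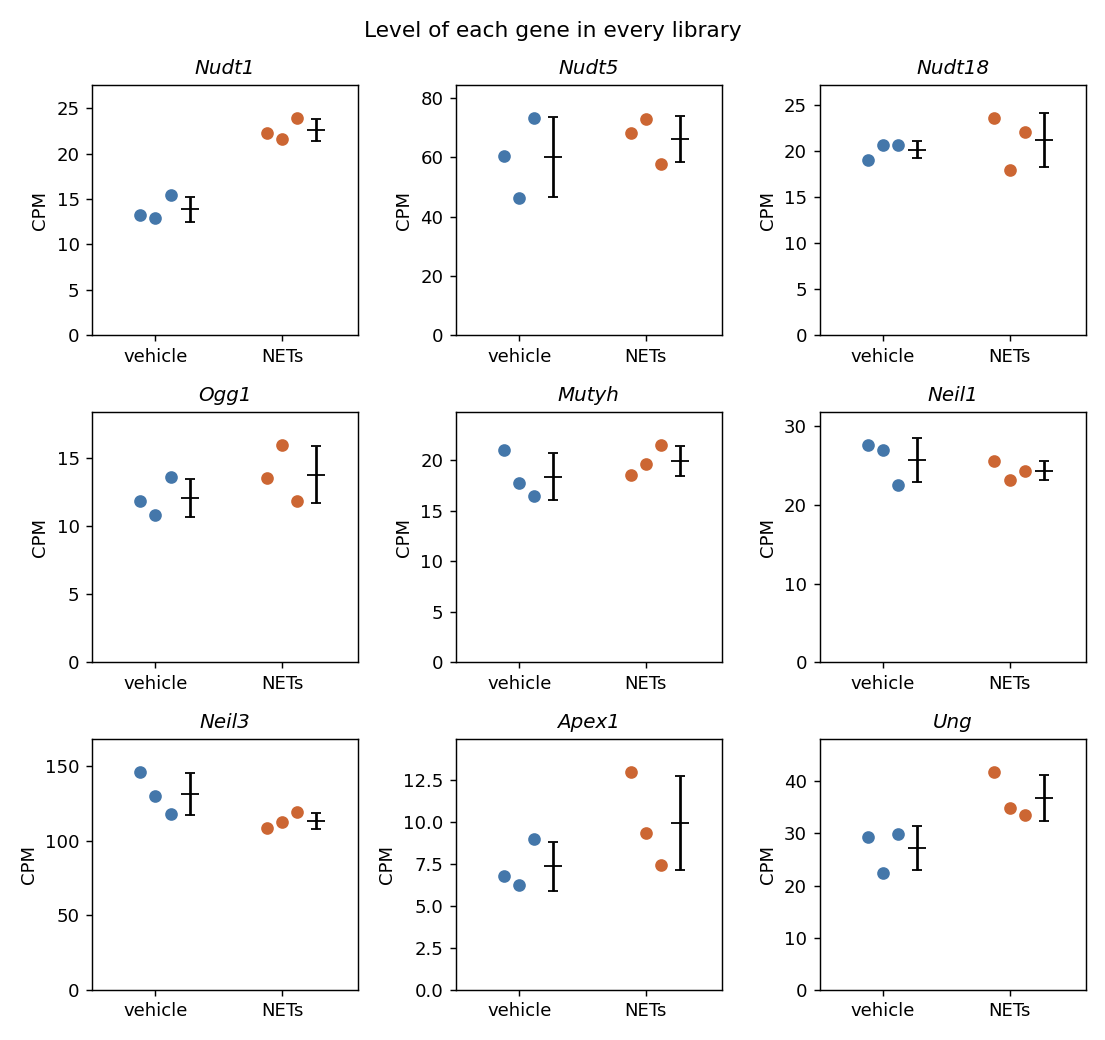
Level of each of the 9 genes in CPM (linear axes from 0) in the 3 vehicle (blue) and 3 NETs (orange) libraries, in the order of replicates 1 to 3, with the mean ± SD beside each group. The points of Nudt1 and of Ung do not overlap between the groups, with Nudt1 at 13.0 to 15.5 CPM against 21.6 to 24.0 CPM, and those of the other 7 genes do.

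Of the 8 genes other than Nudt1, 6 had a log2 fold change above 0 and 2 below it, with a median of 0.14. Over all genes tested, 50.2% lay above 0 and the median was 0.0012. Adjusted over all genes, 0 of the 8 passed by edgeR, where 0% of all genes did. Where DESeq2 called 0.935% of all genes, 0 of the 6 with an adjusted p passed. It gave none for Ogg1 or Apex1. At an unadjusted p under 0.05 by edgeR, Ung was higher (6.72% of all genes) and Neil3 lower (6.06%). All NETs libraries lay above all vehicle libraries for Ung among the 8, where 7.68% of all genes did, and below them for 0 of the 8, where 9.04% of all genes did. With 8 genes these shares say little about the set.

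**Figure D2:**
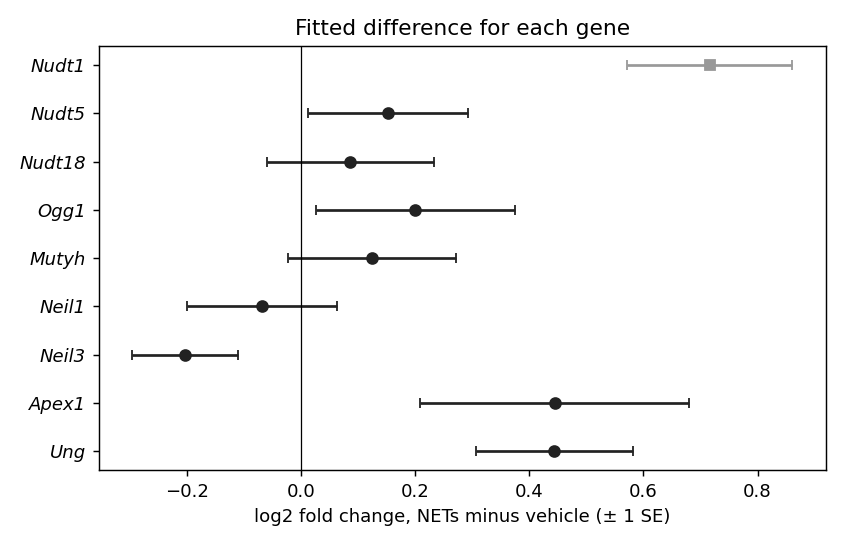
Fitted log2 fold change (NETs minus vehicle, horizontal axis) of the 9 genes with bars of ± 1 SE from edgeR. The grey square marks Nudt1, whose value of 0.72 is how it was chosen, and the lowest value is −0.20 for Neil3.

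Levels of different genes can be compared only per length, and here the order depended on which length was used. For all 9 genes, the length behind the deposited FPKM (counts scaled by gene length and library total) equalled the mean length of the gene's transcripts in GENCODE M21, rounded down. The deposited gene length equalled the gene's total exonic bases in all 9. For Neil3 the former was 1202 bases and the latter 5555, and for Nudt1 they were 642 and 1473 bases.

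By deposited FPKM, the vehicle order was Neil3 at 110 ± 11.7, Nudt5 at 37.1 ± 8.32, Nudt1 at 21.6 ± 2.15, Neil1 at 17.3 ± 1.85, Ung at 15.8 ± 2.42, Mutyh at 14.3 ± 1.81, Ogg1 at 11.8 ± 1.36, Apex1 at 7.62 ± 1.51 and Nudt18 at 6.63 ± 0.307 FPKM (SD, n = 3). The neighbours Neil1 and Ung, Ung and Mutyh, Mutyh and Ogg1, and Apex1 and Nudt18 overlapped in this order. Per kilobase of all exonic bases, Neil3 was still first at 23.7 ± 2.54 CPM per kilobase, and Nudt18 still last at 4.54 ± 0.210. Neil1 moved to the second place at 13.8 ± 1.47 and Ung to the eighth at 4.98 ± 0.764. Nudt1 was at 9.43 ± 0.936 with vehicle and 15.4 ± 0.814 with NETs on this scale, and Nudt5 at 9.26 ± 2.08 overlapped it with vehicle. With NETs, Nudt1 was in the second place on this scale instead of the third. It lay between Neil3 at 20.4 ± 0.996 and Neil1 at 13.0 ± 0.629, and overlapped neither. By deposited FPKM, Nudt1 was in the third place in both groups. Its move holds the group difference by which Nudt1 was chosen.

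Apex1 had the highest share of exonic bases in common with another gene among the 9. Of its 1422 exonic bases, 877 (61.7%) are also exonic in Pip4p1 on the other strand. Nudt5 shared 17.9%, Nudt1 11.3% and Ogg1 10.6% of their exonic bases with genes on the opposite strand, and the other 5 shared none. Whether reads in shared bases were dropped, split or assigned by strand is not stated in the labels. Per kilobase of the bases shared with no other gene, Apex1 with vehicle stood at 13.5 ± 2.68, the third of the 9 genes, where deposited FPKM put it in the eighth place. Such a level is right only if reads in shared bases were not counted.

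**Figure D3:**
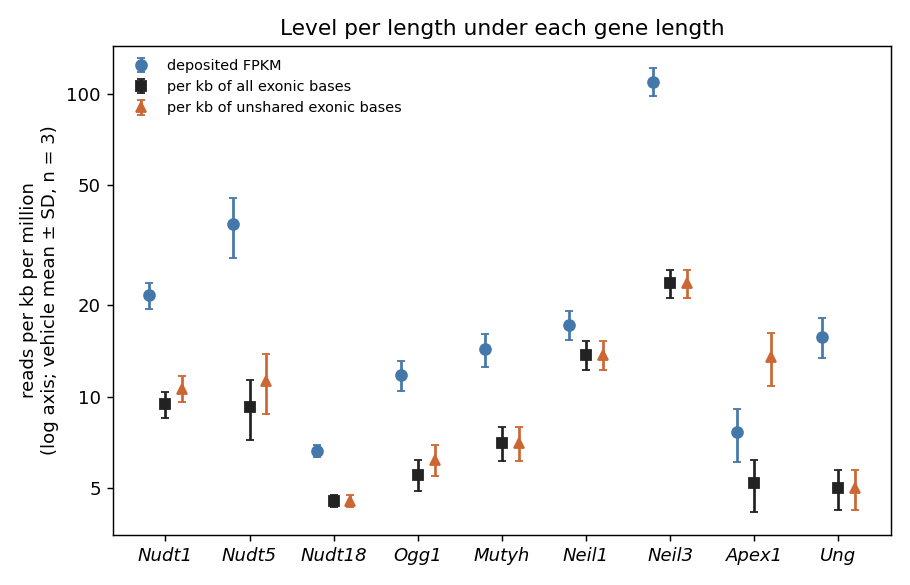
Level of each gene in the 3 vehicle libraries (mean ± SD, n = 3; CPM per kilobase on a log axis) by deposited FPKM, per kilobase of all exonic bases and per kilobase of exonic bases shared with no other gene. Neil3 is highest on all 3 scales, and Apex1 moves from 5.18 to 13.5 between the last 2 of them.

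For Nudt1 the overlaps are with Gm43338 (128 bases at its outer start) and with Mrm2 (39 bases), both on the minus strand. Gm43338, of the annotation's TEC class, averaged 2.18 CPM over the 6 libraries, and its fitted value was −0.59 in log2 fold change (SE 0.41; edgeR adjusted p = 0.559). Only 1 of the 7 annotated Nudt1 transcripts begins at the outer start, 104 bases from the start of Mad1l1. The start of Mrm2 lies 11 bases from the nearest Nudt1 start, and 5 of the 7 begin within 1000 bases of it. Gene-level counts do not show which of these starts was used.

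Both neighbours of Nudt1 were compared with it. Mad1l1, which encodes a spindle checkpoint protein, was at 33.8, 37.2 and 40.9 CPM with vehicle and 47.9, 44.5 and 44.6 CPM with NETs. All NETs libraries lay above all vehicle libraries, and the log2 fold change was 0.30 (SE 0.11; unadjusted p = 0.0156; edgeR adjusted p = 0.284). Mrm2, a methyltransferase of mitochondrial ribosomal RNA, was at 6.27, 7.34 and 9.95 CPM with vehicle and 9.96, 9.13 and 10.03 CPM with NETs, and its groups overlapped (log2 fold change 0.32, SE 0.21; edgeR adjusted p = 0.543). Both fitted values were smaller than that of Nudt1, but Nudt1 was chosen for its rise and these neighbours were not. The differences from Nudt1 were not tested.

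The other back-to-back pairs showed no common order. Mutyh starts 83 bases from Toe1, a deadenylase that matures small nuclear RNAs. Toe1 was at 16.7, 14.4 and 17.8 CPM with vehicle and 20.7, 20.9 and 23.2 CPM with NETs, so its groups were separate where those of Mutyh overlapped (log2 fold change 0.42, SE 0.14; unadjusted p = 0.0107; edgeR adjusted p = 0.267). Apex1 starts 75 bases from Osgep, a tRNA-modifying enzyme, whose log2 fold change was 0.18 (SE 0.13; edgeR adjusted p = 0.586). Nudt5 overlaps the start of Cdc123 by 146 bases, and Cdc123, an assembly factor of translation initiation, had 0.18 (SE 0.09; edgeR adjusted p = 0.430). Of the genes that overlap a gene of the set elsewhere, Pip4p1 was at 0.09, Camk1 at −0.10, Sec61a2 at −0.29 and Gm13199 at −0.82 in log2 fold change. None of these neighbours passed edgeR's test over all genes.

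**Figure D4:**
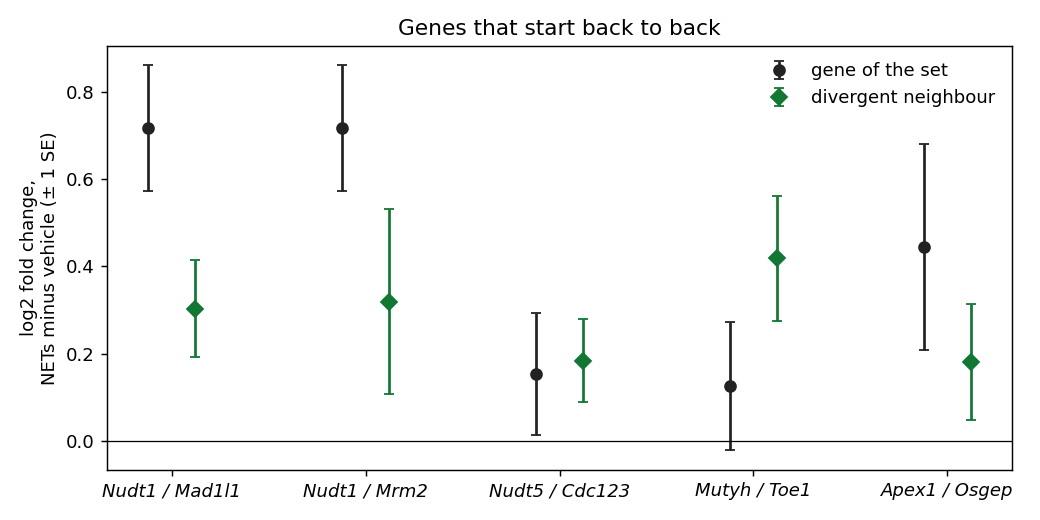
Log2 fold change (NETs minus vehicle, ± 1 SE) of Nudt1, Nudt5, Mutyh and Apex1 (black circles) and of the opposite-strand gene that starts within 1000 bases of at least 1 of their transcripts (green diamonds). Nudt1, chosen for its rise, lies at 0.72 above Mad1l1 at 0.30 and Mrm2 at 0.32, whereas Toe1 at 0.42 lies above Mutyh at 0.13.

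Across the 6 libraries, log2 CPM of Nudt1 ran closest to Mlycd (Pearson r = 0.996), Itih5 (0.994), Cks2 (0.992), Eif1ad (0.991) and Ccnd3 (0.986), among tested genes averaging 5 CPM or more. Mlycd encodes malonyl-CoA decarboxylase, and Cks2 and Ccnd3 encode partners of cyclin-dependent kinases. These 5 genes had log2 fold changes of 0.21 to 0.39, and the depth and treatment of a library are common to all its genes. When each library was set against its own group's mean, the closest included Nmral1 (r = 0.999), Celf2 (0.994), Gsk3b (0.991) and Zscan29 (0.990), whose log2 fold changes were −0.09 to 0.06. No gene was in both lists of 5. Each list holds the highest r values picked from the 10081 tested genes that averaged 5 CPM or more. Within the set, r with Nudt1 was 0.83 for Ung and −0.77 for Neil3, and −0.44 to 0.63 for the other 6. These values hold the group difference by which Nudt1 was chosen. On deviations from the group means, r was 0.26 for Ung, −0.47 for Neil3 and −0.67 for Neil1, and −0.30 to 0.41 for the other 5. With 6 points these values are descriptions.

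Genes of related pathways were taken from lists drawn up by function, with earlier results of these data known, and the genes named from each list are those with its smallest p-values. By edgeR, 0 genes of any of these lists passed over all genes (0% of all genes). Percentages at an unadjusted p under 0.05 over all genes are 6.72% for higher and 6.06% for lower, and the median of all genes is 0.0012.

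Among 17 tested genes of the other Nudix hydrolases, which act on many nucleotide derivatives, 14 lay above 0 and 3 below, with a median log2 fold change of 0.12. One of them, Nudt16l1, a catalytically dead relative that binds 53BP1, had an unadjusted p under 0.05 (0.31, SE 0.13; edgeR adjusted p = 0.323). Nudt3, a diphosphoinositol polyphosphate hydrolase, was next at 0.27 (SE 0.13; edgeR adjusted p = 0.392). The level of Nudt16l1 was 20.4 ± 1.02 CPM with vehicle and 25.1 ± 0.189 CPM with NETs, and its groups did not overlap. In the list of 17, all NETs libraries lay above all vehicle libraries for 4 genes and below them for 1, against 7.68% and 9.04% of all genes.

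The remaining DNA glycosylases, 6 genes, had a median of −0.07, with 3 above and 3 below 0. Tdg, which removes thymine and oxidised methylcytosine, stood at 0.24 (SE 0.11; edgeR adjusted p = 0.368) and Mbd4, which acts at CpG sites, at −0.16 (SE 0.11; edgeR adjusted p = 0.552).

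Downstream base excision repair, 20 genes that trim, fill and seal the gap, had 15 above 0 and 5 below, with a median of 0.14. At an unadjusted p under 0.05, 5 were higher and 0 lower. All NETs libraries lay above all vehicle libraries for 3 of the 20 genes and below them for 1, against 7.68% and 9.04% of all genes. The 1 below was Polb, named after its values were seen, at −0.27 (SE 0.13; edgeR adjusted p = 0.401). Fen1, the flap endonuclease of long-patch repair and of Okazaki fragments, was at 13.2 ± 3.17 CPM with vehicle and 19.5 ± 1.22 CPM with NETs (0.58, SE 0.18; edgeR adjusted p = 0.229). Lig1, the replicative DNA ligase, stood at 0.27 (SE 0.10) and Pold2, a subunit of polymerase delta, at 0.26 (SE 0.11). Hmgb1, a chromatin protein with a role in repair, stood at 0.29 (SE 0.08; edgeR adjusted p = 0.223) and passed by DESeq2 (adjusted p = 0.0478).

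Genes of nucleotide pool cleaning and dNTP supply numbered 17, with 11 above 0, 6 below and a median of 0.18. At an unadjusted p under 0.05, 5 were higher and 1 lower. Dctpp1, which hydrolyses modified dCTP, was at 24.7 ± 2.05 CPM with vehicle and 32.5 ± 1.26 CPM with NETs (0.41, SE 0.12; edgeR adjusted p = 0.223). Itpa, which clears inosine triphosphates, stood at 0.37 (SE 0.12; edgeR adjusted p = 0.249) and Nme1, a nucleoside diphosphate kinase, at 0.50 (SE 0.18; edgeR adjusted p = 0.273). Samhd1, which degrades dNTPs, was on the other side at −0.36 (SE 0.12; edgeR adjusted p = 0.265). All NETs libraries lay above all vehicle libraries for 4 of the 17 genes, Dctpp1 and Itpa among them, and below them for 0. Over all genes these shares were 7.68% and 9.04%.

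Mismatch repair, which also acts on oxidised bases taken up during replication, had 7 of its 8 genes above 0, and the median was 0.10. Exo1, its exonuclease, stood at 0.28 (SE 0.16), and 0 of the 8 had an unadjusted p under 0.05. Of 4 genes that reverse or oxidise away alkyl damage, Mgmt was at 0.25 (SE 0.17), Alkbh1 at −0.21 (SE 0.13), and the median was −0.06. A list of 25 antioxidant genes and NRF2 targets also held Nfe2l2, the gene of NRF2 itself, and its regulator Keap1. Of these 25, 17 lay above 0 and 8 below, with a median of 0.13. Nfe2l2 was at −0.23 (SE 0.11; edgeR adjusted p = 0.401) and Keap1 at 0.21 (SE 0.10; edgeR adjusted p = 0.408). Thioredoxin Txn1 stood at 0.34 (SE 0.09; edgeR adjusted p = 0.223) and the peroxiredoxin Prdx2 at 0.20 (SE 0.08; edgeR adjusted p = 0.320), the 2 genes of this list with an unadjusted p under 0.05.

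The last list holds S phase and proliferation genes. Of 18 genes, 15 lay above 0 with a median of 0.24, and at an unadjusted p under 0.05, 9 were higher and 1, Mki67 at −0.18, lower. Mki67 is named after its values were seen. Gins2, part of the replicative helicase, stood at 0.52 (SE 0.14; edgeR adjusted p = 0.223; DESeq2 adjusted p = 0.0435), Ccne1 at 0.37, the clamp Pcna at 0.35 and the licensing factor Cdc6 at 0.34. The mean log2 CPM of the list relative to the vehicle mean was 0.02, −0.14 and 0.12 for vehicle replicates 1 to 3, and 0.25, 0.26 and 0.13 for NETs replicates 1 to 3. Vehicle replicate 3 was the highest vehicle library on this score. It was also the highest vehicle library for Nudt1, Nudt5, Ogg1, Apex1 and Ung, and the lowest for Mutyh, Neil1 and Neil3. For Nudt18, vehicle replicates 2 and 3 were level at 20.7 CPM. NETs replicate 3 was the lowest NETs library on the score. That library was the highest NETs library for Nudt1, Mutyh and Neil3, and the lowest for Nudt5, Ogg1, Apex1 and Ung. The part of proliferation in the values of the 9 genes was not tested.

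**Figure D5:**
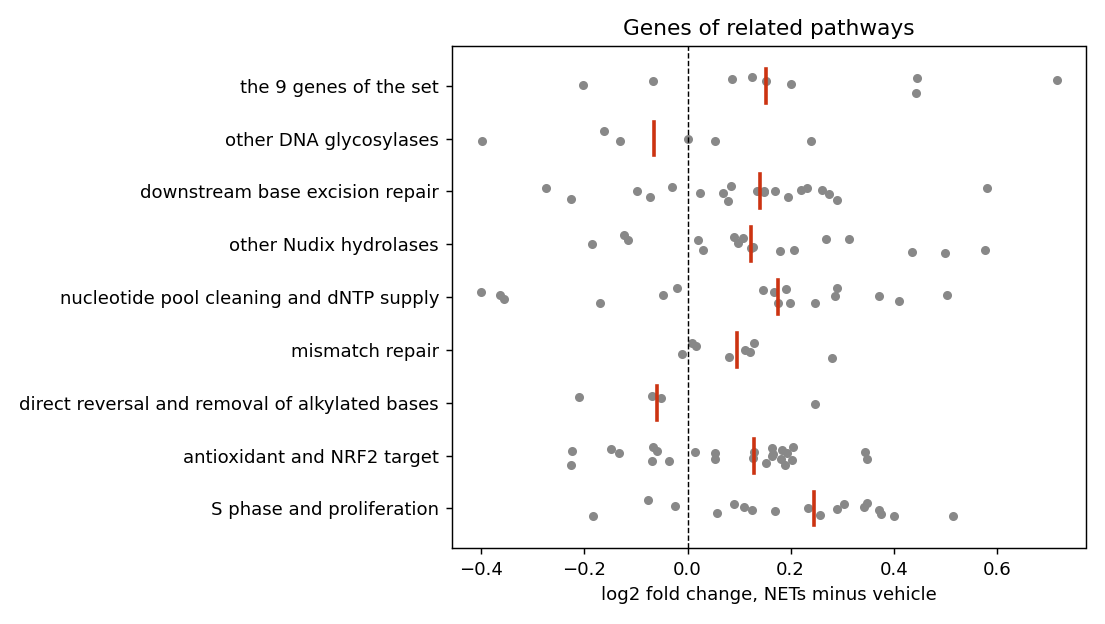
Log2 fold change (NETs minus vehicle) of every tested gene of the set and of each related list, with the list's median as a red bar and the median of all tested genes, 0.0012, as a dashed line. The medians run from −0.07 for the other DNA glycosylases to 0.24 for the S phase and proliferation list. Nudt1, chosen for its rise, is the rightmost point at 0.72.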

How the data were processed

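RNA of 6 libraries was sequenced. Raw counts of reads for each Ensembl gene were deposited in a pair of tables, equal gene by gene. FPKM values were deposited by the authors too, scaled per kilobase of a gene length and by the reads counted in genes. STAR, DESeq2 and the build mm9 are named, without versions, in the submitters' processing notes. Not given in the sources used here are the counter, annotation release, strand setting and filters. Of 54409 genes also in GENCODE M21, 98.3% had the same position in the deposited table, so coordinates are GRCm38. Counts were filtered with filterByExpr, scaled by TMM and tested with edgeR 4.0.16 in R 4.3.3 (quasi-likelihood, two-sided, group as the only term), with Benjamini-Hochberg adjustment over 13900 genes. The filter left out 0.14% of reads. DESeq2 1.42.0 and limma 3.58.1 served as alternatives. The fit was tested on simulated data. Common dispersion gave a biological coefficient of variation of 0.134. CPM levels use library totals. The log2 CPM behind the correlations, the deviations and the S phase score uses totals scaled by TMM. The precision of a level follows from its read count and from 3 libraries per group.

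The members and lists were chosen with earlier results of these data known. Named genes were the 9 members, up to 4 genes with an unadjusted p under 0.05 per list (or the 2 smallest p), the 2 most abundant of each marker list, neighbours of at least 1 CPM that overlap a member or start within 1000 bases, and the 5 genes most correlated with Nudt1 (log2 CPM, prior count 2). Mki67, S100a9, Itgam, Itgax, Polb, Nfe2l2 and Keap1 were named after their values were seen. Of 177 list entries, 177 were matched. Some genes that this rule names are not reported here.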

Additional observations from a re-analysis of the deposited data

How the results depend on the processing

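The log2 fold changes of all 9 genes kept their sign under all 16 alternatives. Nudt1 was chosen for its rise in these same counts and its groups were fully separate, so its kept sign adds no support. Its log2 fold change ranged from 0.67 to 0.80. That of Ung ranged from 0.33 to 0.51, with adjusted p-values of 0.0594 (edgeR with no filter beyond 1 read) to 0.812 (without NETs replicate 1). Leaving out 1 library moved the smaller values further, to 0.0063 to 0.32 for Nudt5, 0.0036 to 0.20 for Nudt18, 0.09 to 0.29 for Ogg1, 0.05 to 0.22 for Mutyh, −0.15 to −0.02 for Neil1, −0.28 to −0.13 for Neil3 and 0.21 to 0.61 for Apex1. None of the 8 genes other than Nudt1 passed the threshold under any alternative that gave an adjusted p (DESeq2 gave none for Ogg1 and Apex1). The count over all genes was less stable, at 0 by edgeR as reported and with upper-quartile scaling, with library totals only and with a mean of at least 5 CPM. It was 130 by DESeq2, 1 by limma-voom and 322 by edgeR with no filter beyond 1 read. Limma-trend called 2 genes on log2(FPKM + 1), 2 on log2(FPKM + 0.1) and 3 among genes with a mean FPKM of at least 1. Leaving out 1 library gave 0 to 405 called genes, with the 405 found without vehicle replicate 3, and the cause was not tested. The labels do not say that equal replicate numbers share an animal, so the numbers were not taken to pair the samples. Deviations of same-numbered libraries had r of −0.08, −0.15 and −0.33, and those of differently numbered libraries −0.34 to 0.45. Deviations from a mean of 3 libraries sum to 0, so these r values cannot decide whether samples were paired. With the replicate number as a block, 0 genes were called over all genes and 0 among the 8. Depth limits Apex1 most, at 98 to 223 reads per library.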
